A study of Homo sapiens with 2 samples.

Results

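Short interspersed elements (SINEs) are short mobile repeats that do not code for protein. DDX18 is an RNA helicase of the DEAD-box family, and 342 of the 16095 distinct positions at which an iCLIP experiment found it on RNA lay in such repeats. iCLIP crosslinks a protein to its RNA with ultraviolet light and maps the bound RNA at near-nucleotide resolution. A peak was a member when the authors' deposited annotation gave a repeat of class SINE at its position, and each combination of chromosome, start, end and strand was counted a single time. The 342 positions came from 372 entries, since 30 entries gave a position already listed. No measured value was used to choose them.

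The study had 2 samples, replicates 1 and 2, in 1 group. Both came from H9, a long-established line of human embryonic stem cells, made to express 3XFlag-DDX18 and kept under normal culture on irradiated mouse embryonic fibroblasts. Cells received 160 mJ/cm2 of ultraviolet light at 254 nm and the tagged protein was pulled down with an antibody against Flag. Samples without the tag, without crosslinking or of input RNA were not analysed here, and neither the promoter behind the tagged protein nor the number of clones is given in the sources used here. Both samples share 1 deposited peak list with 1 height per peak. No spread between replicates and no depth per sample can therefore be given for any value, and no comparison between groups was made. Intervals are exact 95% binomial intervals (Clopper-Pearson) and cover counting error only.

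The 2 SINE families in the list differ in origin. Alu elements are specific to primates and arose from 7SL RNA, the RNA of the signal recognition particle. A full Alu is a dimer of a left and a right arm, while the FLAM and FRAM repeats are free monomers related to these arms. Alu subfamilies fall by age into AluJ, the oldest, AluS, and AluY, the youngest, which still holds active copies. MIR here means mammalian-wide interspersed repeat, an older SINE derived from a tRNA, and not a microRNA. SINEs lie in large numbers within introns, so most SINE sequence in nuclear RNA is part of longer pre-mRNA. Some copies are instead transcribed on their own by RNA polymerase III. Alu copies of opposite orientation can pair into double-stranded RNA, the substrate of the ADAR editing enzymes. The sequences of the bound elements are not shown, because no genome of the peaks' build, hg19, was used here.

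SINE peaks made up 2.12% of all positions (95% interval 1.91 to 2.36) and 28.6% of the 1197 positions that carry a repeat name (26.0 to 31.2). Repeat names occur only at intronic and intergenic positions in this annotation. SINE peaks in exons and untranslated regions are therefore not among the members. LINE repeats, the longer elements that encode their own reverse transcriptase, held 385 positions or 32.2% of the named ones. LTR elements and DNA transposons together held 273 or 22.8%. SINE peaks carried 0.340% of the summed height of the list, 2225 of 653535.

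Alu elements held 237 of the 342 peaks, or 69.3% (64.1 to 74.1), and MIR elements the other 105, or 30.7% (25.9 to 35.9). Within Alu, the AluS group led with 129 peaks (54.4%, 47.9 to 60.9), followed by the older AluJ group with 85 (35.9%, 29.8 to 42.3). The young AluY group had 17 peaks (7.17%, 4.23 to 11.2). The FLAM and FRAM monomers had 5 (2.11%), namely 3 in FLAM_C and 2 in FRAM. A further monomer repeat, FAM, held 1 peak and was not counted in this group. The intervals of AluS, AluJ and AluY do not overlap, so their order as shares of this list is larger than the counting error. How common each subfamily is in the genome or in the RNA of these cells was not analysed here. Whether the order reflects a preference of DDX18 was therefore not tested.

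**Figure D1:**
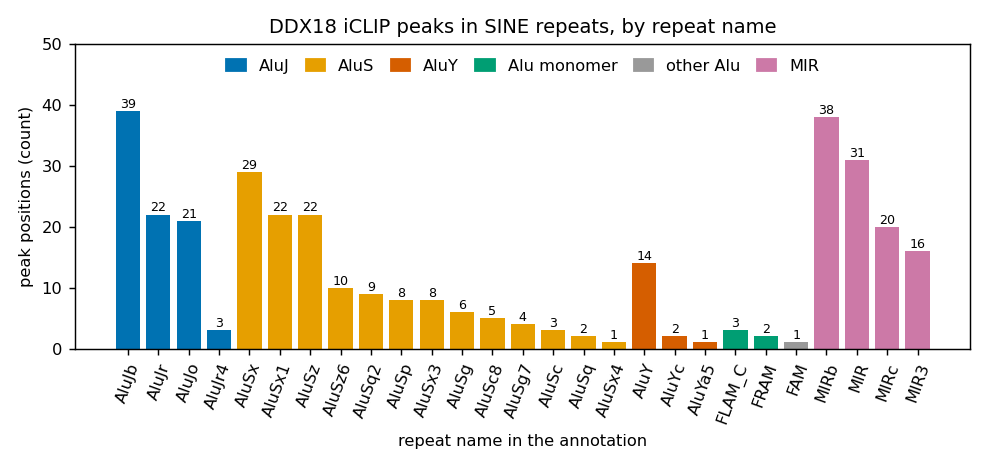
Number of distinct DDX18 iCLIP peak positions (vertical axis, count) for each of the 27 SINE repeat names in the annotation (horizontal axis), coloured by group. AluJb (39), MIRb (38) and MIR (31) have the highest bars, and AluSx (29) leads the AluS group.

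The 27 repeat names were unevenly filled. AluJb, with 39 peaks, was the most frequent name, ahead of MIRb with 38, MIR with 31 and AluSx with 29. AluJr, AluSx1 and AluSz had 22 peaks each and AluJo 21. Among MIR elements, MIRc had 20 peaks and MIR3 16. AluY proper had 14 peaks and AluYc 2. AluYa5, a subfamily with recent copies in humans, had 1 peak of height 4. The AluS group was spread over 13 names, of which 5 had 5 peaks or fewer.

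SINE peaks were low and nearly uniform in height. A peak's height is the authors' whole-number signal at the peak, scaled neither to sequencing depth nor to how abundant the RNA was. The median of all 342 was 6 and both quartiles were also 6, with a range of 3 to 43. A height of exactly 6 was found at 195 peaks (57.0%, 51.6 to 62.3), a lower height at 79 (23.1%) and a higher one at 68 (19.9%). Only 22 SINE peaks reached a height of 10 (6.43%, 4.07 to 9.58). The list holds only peaks that the authors called significant, so still lower signal in SINEs is not part of these counts.

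Alu and MIR peaks had the same median height. It was 6 in Alu (quartiles 6 and 6, highest 43) and 6 in MIR (quartiles 6 and 6, highest 31). The share of peaks above 6 was 21.1% in Alu (16.1 to 26.8) and 17.1% in MIR (10.5 to 25.7), intervals that overlap. Within Alu, 23 of 85 AluJ peaks (27.1%, 18.0 to 37.8) and 20 of 129 AluS peaks (15.5%, 9.73 to 22.9) were above 6, again with overlapping intervals. AluY had 7 of 17 peaks below 6 (41.2%, 18.4 to 67.1), and too few peaks for a narrow interval. The 5 FLAM and FRAM peaks ranged from 6 to 12 with a median of 9.

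The heights of SINE peaks lay close to those of other intronic peaks and below those of exonic ones. The median was also 6 in LINE peaks, in LTR and DNA transposon peaks and in the 1822 peaks of introns without a repeat name, against 9 in coding exons and 8 over the whole list. A height of at least 10 was reached by 5.19% of LINE peaks (3.20 to 7.91), 8.12% of peaks in introns without a repeat name (6.91 to 9.47) and 41.6% of coding-exon peaks (40.5 to 42.7). The SINE interval of 4.07 to 9.58 overlaps the intervals of the LINE and intronic peaks and lies below that of the coding exons. Very high peaks were not found among SINEs, whose maximum of 43 compares with 1033 in LINEs, 492 in LTR and DNA transposons and 3427 in introns without a repeat name.

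**Figure D2:**
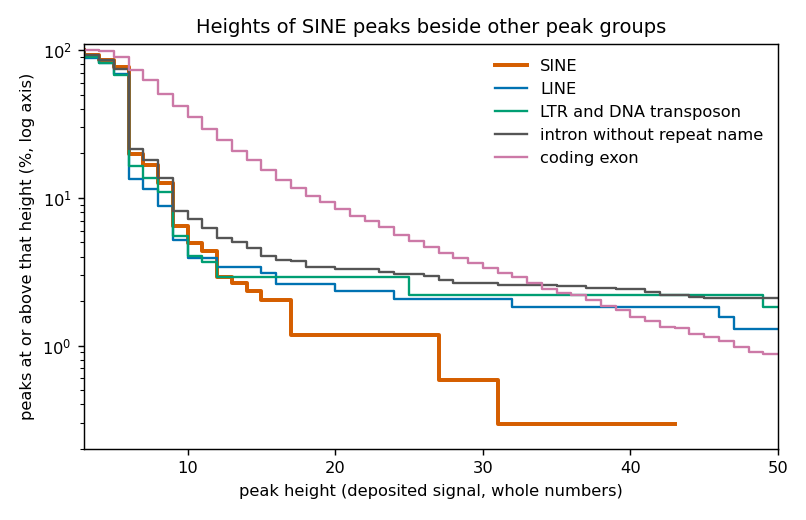
Percentage of peaks (vertical axis, log scale) at or above each height (horizontal axis, deposited signal) from 3 to 50, for SINE, LINE, LTR and DNA transposon, repeat-free intron and coding-exon peaks. The SINE curve falls steeply after a height of 6 together with the other intronic groups, and ends at 43, while the coding-exon curve falls slowly.

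SINE peaks were wide. Their median width was 25 nt (quartiles 18 and 31, range 2 to 41), compared with 24 nt in LINEs, 22 nt in introns without a repeat name, 10 nt in coding exons and 13 nt over all positions. AluY peaks had a median width of 28 nt and AluS peaks one of 23 nt. Width fell with height: the 79 SINE peaks of height 3 to 5 had a median width of 29 nt, the 195 of height 6 had 26 nt, the 46 of height 7 to 9 had 18 nt and the 22 of height 10 or more had 16 nt. A like fall was seen in the other groups, between peaks of height 6 and those of height 10 or more. Median width fell from 24.5 to 15 nt in LINEs and from 24 to 15 nt in introns without a repeat name. In coding exons it fell from 19 to 6 nt.

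**Figure D3:**
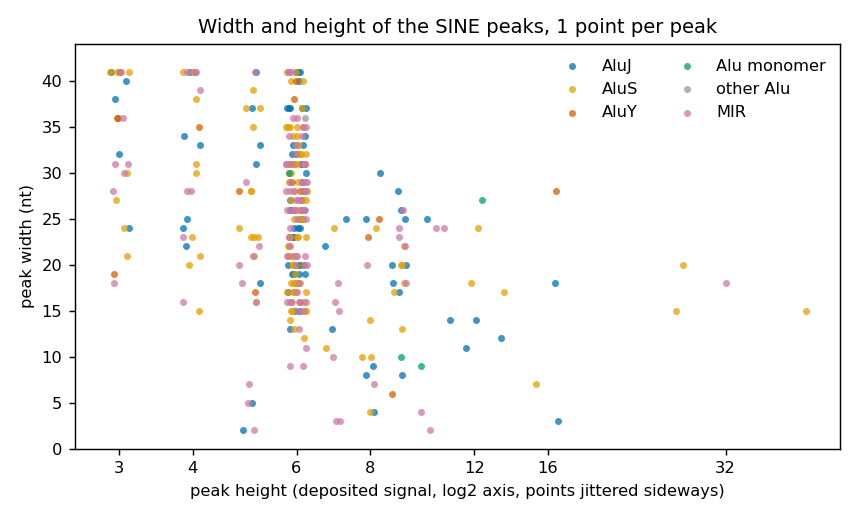
Width in nt (vertical axis) against height (horizontal axis, deposited signal, log2 scale, jittered sideways) of the 342 SINE peaks, 1 point per peak, coloured by group. Points pile up at a height of 6, where the median width is 26 nt, and the 22 peaks of height 10 or more are narrower, with a median of 16 nt.

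The authors' expected height, 1 value for each called gene, was low for SINE hosts. It was constant within every one of the 6695 called genes. Across SINE peaks its median was 0.03 (quartiles 0.01 and 0.05), against 0.02 in LINE peaks and 0.11 in coding-exon peaks. An expected height of 0.1 or more was given for only 28 of the 342. The deposited p-value of SINE peaks had a median of 0.000739, was at its lower limit of 1e-100 in 25 peaks (7.31%) and above 0.01 in 78 (22.8%). Those shares were 14.9% and 16.1% over the whole list. They were 5.71% and 23.9% in LINE peaks, and 5.49% and 21.2% in LTR and DNA transposon peaks. Peaks in introns without a repeat name had 10.3% and 21.5%. How reads that match several copies of a repeat were placed is not given in the sources used here, and its part in these values was not tested.

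Since repeat names occur only at intronic and intergenic positions, SINE peaks could be listed nowhere else. Of the 342, 323 (94.4%) were intronic and the other 19 intergenic. LINE peaks were intronic in 372 of 385 cases, and LTR and DNA transposon peaks in 260 of 273. Of the intronic SINE peaks, 97 were in the first intron of the annotated transcript (30.0%, 25.1 to 35.4) and 27 in the last (8.36%, 5.58 to 11.9). Peaks in introns without a repeat name were in the first intron in 30.9% (28.8 to 33.1) and LINE peaks in 25.5% (21.2 to 30.3), so the intervals of all these groups overlap. MIR peaks were in a first intron in 34 of 101 cases (33.7%), AluS peaks in 41 of 124 (33.1%) and AluJ peaks in 18 of 79 (22.8%), again with overlapping intervals. The median distance to the nearest transcription start site was 23512 nt for SINE peaks and 36149 nt for LINE peaks. A start site lay within 5000 nt of 48 SINE peaks (14.0%), of 23 LINE peaks (5.97%) and of 17.7% of peaks in introns without a repeat name. Peaks fell on both genome strands alike, with 177 on the plus strand (51.8%, 46.3 to 57.2). The orientation of the elements themselves was not analysed here, so sense and antisense copies were not separated.

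SINE peaks were solitary. The nearest other peak on the same strand was at a median distance of 54481 nt, compared with 55411 nt for peaks in introns without a repeat name and 2926 nt for coding-exon peaks. Only 8 SINE peaks (2.34%) had another peak within 1000 nt, against 32.5% of coding-exon peaks and 5.60% of peaks in introns without a repeat name. LINE peaks were at least as solitary, with a median distance of 60633 nt and 1.04% within 1000 nt. A single SINE peak, in HSP90B1, had a neighbour within 300 nt. No element carried more than 1 peak by the measure used, since joining peaks of 1 repeat name within 300 nt left 342.

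The 342 positions were called in 360 genes, of which 356 matched the RefSeq gene table. Protein-coding genes numbered 333, beside 14 long non-coding RNA genes, 8 transcribed pseudogenes and 1 microRNA gene. Of the positions, 9 were called in more than 1 gene and account for 39 entries. The AluY peak of height 8 in the alpha-protocadherin cluster was listed under 15 genes, which share their last exons. An AluJr peak of height 11 in intron 1 of 3 of QPRT, an enzyme of NAD synthesis, was listed under 8. A SINE peak was called in 1.66% of the 20056 protein-coding genes of the table, and any peak in 31.0%.

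No gene had 3 SINE peaks or more, and 12 genes had 2. These 12 are named here after their values were seen: ASAP2, CROCC, ECT2, FRMD5, FTX, HELLS, MSI2, PAK1, PTAR1, RAP1GAP2, RERE and WDPCP. The paired peaks lay 4.08 kb apart in CROCC, which encodes the ciliary rootlet protein, and 438 kb apart in WDPCP, a gene of cilium formation, with a median gap of 28.0 kb. The heights of a pair were equal in 7 of the 12 genes. They were 6 and 6 in ASAP2, FRMD5, MSI2, RAP1GAP2 and RERE, 9 and 9 in FTX, and 4 and 4 in WDPCP. Of all SINE peaks 57.0% had a height of 6, and whether equal heights are more frequent in these pairs was not tested. HELLS, a chromatin remodeller needed for DNA methylation, had peaks of height 8 in an AluJo of intron 3 and 12 in an AluJb of intron 6 of 22. MSI2, which encodes the translational regulator Musashi-2, had peaks in an AluSx and an AluJr that lay 109 kb apart in introns 5 and 6 of 13. FTX, a long non-coding RNA gene of the X-inactivation centre, had an AluJb and a MIRb peak, each of height 9, within introns 5 and 4 of 6. Alu and MIR peaks occurred together in 2 genes, CROCC and FTX.

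SINE peaks were called in long genes. The protein-coding hosts spanned a median of 113 kb in the gene table (quartiles 50.3 and 237), against 49.1 kb for genes with a coding-exon peak and 50.9 kb for all genes with a peak. Hosts of LINE peaks spanned 160 kb and genes with peaks in introns without a repeat name 127 kb. Hosts of MIR peaks had a median span of 183 kb (quartiles 63.9 and 290) and hosts of Alu peaks one of 98.9 kb (46.4 and 214), so the middle ranges overlap. Shares were not adjusted for gene length, and its part in the calls was not tested. These spans are of the GRCh38.p14 assembly, whereas the peaks are on hg19.

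**Figure D4:**
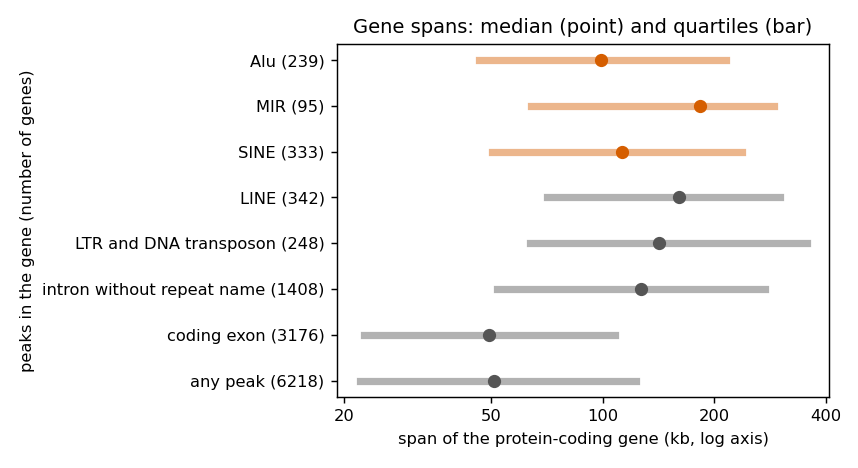
Span of protein-coding genes (horizontal axis, kb, log scale) by the kind of peak called in them, with the number of genes in parentheses, where points are medians and bars run from the lower to the upper quartile. Hosts of SINE peaks have a median of 113 kb, above the 49.1 kb of genes with a coding-exon peak and below the 160 kb of LINE hosts.

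No peak outside SINEs was called in 142 of the 360 hosts (39.4%, 34.4 to 44.7). Of these, 140 had a single peak, while ASAP2 and WDPCP had 2 SINE peaks each. A peak in an exon or untranslated region was called in 154 hosts. LINE hosts had no peak outside LINEs in 43.6% (38.5 to 48.8). For hosts of LTR and DNA transposon peaks the like share was 44.4% (38.5 to 50.5). For genes with peaks in introns without a repeat name it was 52.0% (49.5 to 54.6), an interval above that of SINE hosts. A further peak of the same kind does not count as an outside peak in this measure. Several peaks of the same kind were called in 18.2% of those genes and in 3.33% of SINE hosts, so the 2 shares are not strictly alike. In the 218 SINE hosts with other peaks, the highest SINE peak was below the highest other peak in 104, equal to it in 61 and above it in 53. Hosts that share a position are not independent here, and without the 9 positions called in several genes these counts were 94, 55 and 37 of 186. Among the 125 hosts with a coding-exon peak, the exon peak was the higher in 59, the SINE peak in 38, and 28 were tied. Of the 38, 15 are the alpha-protocadherin genes with their shared AluY position. Without the positions called in several genes, the exon peak was the higher in 50 of 98 hosts (95% interval 40.7% to 61.3%), the SINE peak in 22, and 26 were tied. In genes with 2 peaks or more, 141 of 205 SINE peaks (68.8%, 62.0 to 75.1) had the lowest height listed for their gene, including 52 in genes whose peaks were all equal. That share was 68.1% (65.3 to 70.8) for peaks in introns without a repeat name and 38.6% (37.4 to 39.8) for coding-exon peaks. The highest height of the gene was held by 102 of the 205 SINE peaks (49.8%), with the same 52 included. This second share was 52.2% for peaks in introns without a repeat name and 24.7% for coding-exon peaks. The median SINE host had 2 peaks, and the shares were not adjusted for the number of peaks per gene.

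The highest SINE peak, of height 43, lay in an AluSx element in intron 6 of 17 of HSP90B1, which encodes an endoplasmic reticulum chaperone. It covers chr12:104331658-104331672 on the plus strand of hg19. HSP90B1 had 11 other peaks, of heights 15 to 51, and its expected height of 1.16 was the second highest among SINE hosts after the 1.25 of TTYH3. The nearest of these peaks, of height 15, lay in coding exon 6 of 18, 144 nt upstream of the Alu peak. Peaks of height 16 in exon 7 and 51 in exon 9 followed downstream. The Alu peak thus stood second in its gene, inside a run of exonic peaks. Few SINE peaks had such neighbours.

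The second highest, of height 31, lay in a MIRb element at chr15:69771003-69771020 on the plus strand. The annotation placed it in intergenic sequence, 25852 nt from the start site of RPLP1, a ribosomal protein gene, while the authors called it in DRAIC, a long non-coding RNA gene. It was the only peak of DRAIC. The next MIR peak, of height 11, lay in intron 3 of 5 of WDR86 and was again the only peak of its gene. A MIRb peak of height 10 was in intron 1 of 8 of ZNF609, a zinc-finger gene with 2 further peaks of 6 and 13.

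Among AluS peaks, 2 of height 27 came after HSP90B1. The AluSz6 peak in intron 4 of 23 of ARHGAP42 covers chr11:100776626-100776640 on the plus strand. The only other ARHGAP42 peak, of height 6, lay in the same intron. The AluSx1 peak in intron 7 of 69 of CSMD1, a very long gene for a transmembrane protein, stood on chromosome 8 above 6 other peaks of heights 4 to 9. Both genes had an expected height of 0.01 or less. In these genes the Alu peak was thus the highest by a factor of 3 or more.

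AluJ peaks were led by RNFT2 and AKT2, both at 17. The RNFT2 peak was 3 nt wide, in an AluJo of intron 11 of 11 at chr12:117288166-117288168 on the plus strand, beside 1 other peak of height 14. The AKT2 peak lay in an AluJr of intron 1 of 13 of this kinase gene of insulin signalling, at chr19:40787205-40787222 on the minus strand. It was 1335 nt from the start site of the microRNA gene MIR641. The other AKT2 peaks, of heights 15 and 9, lay in the same intron and carried no repeat name. PKN2, a protein kinase gene, followed with a peak of 13 in an AluJo of intron 8 of 21.

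The highest AluY peak was one of 17 in intron 3 of 13 of UVSSA, a gene of transcription-coupled DNA repair, at chr4:1344882-1344909 on the plus strand. The other UVSSA peak, of height 8, lay in intron 9 without a repeat name. HNRNPF, a splicing regulator, had the next, of height 9 in intron 1 of 3. That value equals the lowest of the 6 other HNRNPF peaks, which ran from 9 to 12 in its last exon. The alpha-protocadherin peak of 8 followed. Among Alu monomers, a FRAM copy in intron 1 of 28 of COL23A1, a transmembrane collagen gene, had a peak of 12. A FLAM_C copy called in the pseudogene CRYBB2P1 had one of 10, and a FLAM_C copy in intron 11 of 39 of NUP210, a nuclear pore gene, one of 9. NUP210 had 18 other peaks of heights 9 to 22.

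The remaining peaks among the 10 highest were in AGBL4 and TTYH3. AGBL4, a carboxypeptidase gene of 1501 kb, had a single peak, of height 15 in an AluSz of intron 5 of 13. TTYH3, a gene for a membrane protein of the tweety family, had one of 14 in an AluSq2 of intron 1 of 13, with a deposited p of 0.0141. A peak in the 3' UTR shared this lowest of its 17 heights, and another there reached 38. The 10 highest SINE peaks held 221 of the summed SINE height of 2225 (9.93%).

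Of the 22 SINE peaks of height 10 or more, 17 were in Alu and 5 in MIR. AluJ and AluS had 7 each, AluY 1 and the monomers 2. In 8 cases the gene had no peak outside SINEs, among them DRAIC, AGBL4, SRP72 and MMP17. In the other 14, the SINE peak was above every other peak of the gene in 10 and below the highest in 4, namely HSP90B1, TTYH3, QPRT and ZNF609. This set was chosen by height, so these counts describe it and test nothing.

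**Figure D5:**
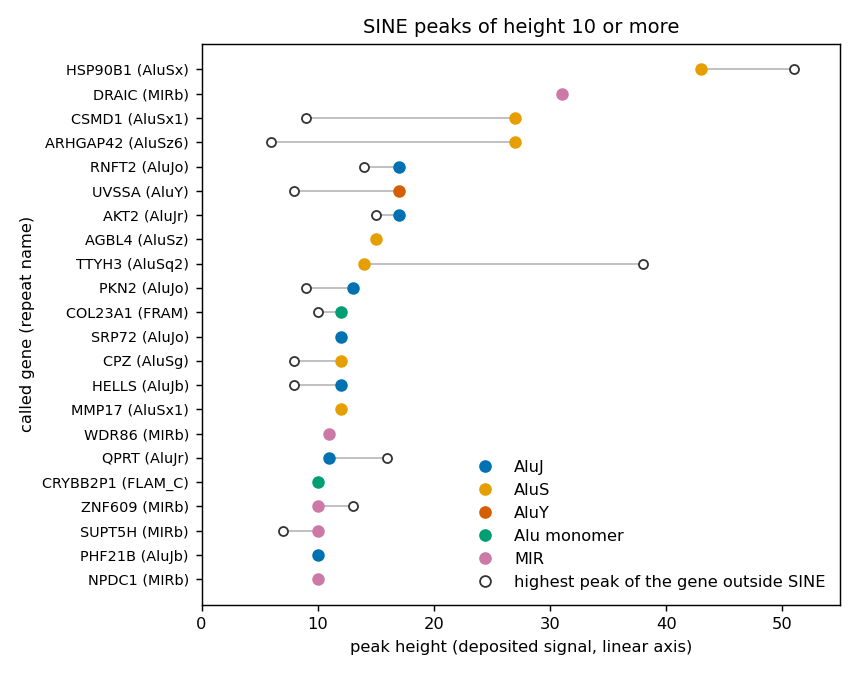
Height (horizontal axis, deposited signal, linear) of the 22 SINE peaks of height 10 or more, named by called gene and repeat, as filled points coloured by group. Open points give the highest peak of the same gene outside SINEs, where there is one: it lies to the right of the SINE peak in HSP90B1 (51), TTYH3 (38), QPRT (16) and ZNF609 (13).

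Intergenic SINE peaks numbered 19 (5.56%). After DRAIC and CRYBB2P1, the highest was one of 9 in an AluSg7 on chromosome 9, called in LOC286297. The other 3 peaks of that gene, of heights 3, 3 and 28, start at positions 45436131, 66458182 and 66458233 of the same chromosome, far from the Alu peak at 43997111. Several distant places thus carry this gene name in the list.

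Lists of genes whose products act on SINE RNA or its relatives held 2 hosts of SINE peaks, SRP72 and ADARB1, which is too few to set apart from the share over all genes. Of 10 genes of the signal recognition particle and its receptor, 6 had a peak, and 1 had it in a SINE, beside 31.0% and 1.66% of all protein-coding genes. That gene was SRP72, whose product contacts 7SL RNA, the ancestor of Alu. Its single peak, of height 12, lay in an AluJo of intron 8 of 18 at chr4:57345717-57345727 on the plus strand. SRP9 and SRP14, which bind the Alu part of 7SL RNA, had 1 peak each outside SINEs, of heights 9 and 10. No peak was called in the 7SL genes RN7SL1 and RN7SL2.

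Of 24 genes for proteins that bind SINE or double-stranded RNA, 21 had a peak (87.5%). Their highest values per gene ran from 5 to 480, with a median of 15. MATR3 (480) and NCL (469) stood far above the next gene, NONO (33). The only SINE peak among the 24 genes was in ADARB1, an RNA-editing enzyme, with a height of 5 in an AluJb of intron 1 of 12. ADAR, the main editor of Alu RNA, had 6 peaks with a highest of 13, and HNRNPC, which shields cryptic splice sites in Alus, had 4 with a highest of 21. None lay in a SINE. Of 23 genes of RNA polymerase III and its factors, 7 had a peak and 0 a SINE peak. GTF3C1, the largest subunit of the factor that recognises Alu promoters, had 15 peaks with a highest of 15. The background shares of 31.0% and 1.66% include genes that these cells may not express, and expression is not in the peak list.

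Cell identity could be checked only through which genes carry any peak. Pluripotency genes had a peak in 18 of 25, with highest values of 5 to 80 per gene, and none was listed for POU5F1 or SOX2. Markers of neuroectoderm, mesoderm and endoderm had one in 3 of 15, 2 of 15 and 1 of 13. Fibroblast markers had one in 9 of 15, with highest values per gene of 6 to 39. The cells grew on mouse fibroblasts, and the part of their RNA was not tested. The share of all protein-coding genes with a peak was 31.0%. None of these lists had a gene with a SINE peak, which at 1.66% of all protein-coding genes is near the background for lists of this size.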

How the data were processed

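The iCLIP of 2 samples was deposited as 1 peak list. FastQC 0.10.1, BWA and hg19 are named in the submitters' processing notes, and annotation with annotatePeaks.pl (HOMER) on hg19 is recorded per the file headers. The sources used here do not give the peak caller, the rule for significance, the treatment of duplicate reads or any pooling of samples. The authors deposited peak height as a whole-number signal. Expected height and p-value are the authors' own, copied from the peak names.

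Positions were counted with Python 3.11.15, pandas 2.3.3 and scipy 1.17.1, checked on a simulated list. Genes are those in which the authors called the peak, named by Entrez identifier through the RefSeq table of GRCh38.p14. Since the list has 1 group and no value per sample, no test was run. Named peaks are the 10 highest, the 3 highest of each subfamily group and of intergenic peaks, genes with 3 or more SINE peaks, runs of joined peaks and members of the gene lists. No joined run and no gene with 3 existed. The members and the 8 lists were chosen with earlier results of these data known.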

Additional observations from a re-analysis of the deposited data

How the results depend on the processing

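Counts of SINE peaks and of host genes, Alu and MIR shares, median heights, summed height and first-intron shares stayed within their limits (1.5 times for counts, the interval for shares) under the alternatives tried, except as follows. With heights of 10 or more, 22 SINE peaks were left, of which Alu made up 77.3% (17 of 22) and MIR 22.7% (5 of 22). AluS then made up 41.2% of Alu peaks (7 of 17). These shares rest on few peaks, and no interval was computed for them. With lower peaks of every kind left out, 51.7% of host genes had no other peak of height 10 or more. Counting every entry moved AluY to 11.8% of Alu peaks, since 1 AluY position is listed under 15 genes. Without small RNAs, simple repeats and low complexity in the denominator, SINEs made up 34.0% of named repeats. Leaving out the 9 positions called in several genes, chosen after seeing the data, kept 333 peaks and 321 hosts. No paired analysis was possible because the list has no value per replicate, so leaving out a replicate was not possible either. At a height of 6, counting error limits single peaks.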

Other observations

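Repeats related to SINEs by origin or by transcription were also rare in the list. Copies of 7SL RNA held 2 peaks, of height 9 in intron 4 of 11 of TRAPPC12 and of height 5 in intron 6 of 16 of EYA3. Copies of Y RNA, small RNA polymerase III transcripts bound by the Ro60 protein, held 3 peaks, of height 6 in BLOC1S6, 5 in WWC3 and 4 in LCT. None of these 5 peaks was above the 10th highest SINE peak, of height 13.

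SINE peaks were spread over chromosomes 1 to 22 and X. Chromosome 1 had the most, 33, followed by chromosomes 2 and 7 with 27 each. Per 100 peaks of the chromosome, SINE peaks numbered 3.48 on chromosome 9, 3.41 on chromosome 10 and 3.40 on chromosome 22, against 1.11 on chromosome 5 and 1.24 on chromosome X. SINE and LINE peaks shared 28 host genes, which are 7.78% of the SINE hosts and 7.63% of the LINE hosts. Among all 6695 called genes, 360 were SINE hosts and 367 LINE hosts. Hosts of both kinds were long genes, and whether the overlap exceeds what gene length gives was not tested.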
